A study of Mus musculus with 6 samples.

Results

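Imprinted genes are expressed mainly from the copy inherited from 1 parent. This account covers 44 of them in immortalized mouse keratinocytes that lack or regain α3 integrin, chosen by gene symbol from the 49315 genes counted and grouped into 17 domains and single loci. The list was compiled with the difference between these cell lines already known, and it centres on Cdkn1c for that reason. The differences of members between the lines are therefore descriptions: no p-value is printed for a member, and whether it passed the threshold of the fit over all genes is given as a label that supports nothing. Control was the MK-546 (MK-/-) line, keratinocytes from skin with no α3 integrin. The 3A group was the line MK-546-ha3A (MK-/-:ha3), the same cells given human α3 back. Both were left untreated and harvested from collagen-coated dishes below full confluence. There were 3 libraries of either line (Control 1 to 3, 3A 1 to 3), and a group was a single line, so α3 and the descent of the line cannot be told apart. Nothing in the labels says that replicates were separate cultures, so a p-value here reflects the spread of these 6 samples alone, which may be technical.

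In an imprinted domain, a control element that carries DNA methylation on the copy from 1 parent sets which copy of the neighbouring genes is used. In the domain of Cdkn1c that element holds the start of Kcnq1ot1, a long noncoding RNA made from the paternal copy, and the protein-coding genes around it are usually expressed from the maternal copy. Many imprinted genes act on growth: Cdkn1c (p57Kip2) inhibits cyclin-dependent kinases, Igf2 is a growth factor and Igf2r clears it. For several members the preference for 1 copy is known only in brain or placenta. A count per gene does not separate the parental copies, so none of the values below shows which copy was used.

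Total counts ranged from 25634204 to 36245240 per library. Control 1 stood apart, with r = 0.957 and 0.953 to Control 2 and Control 3 across genes, against 0.988 between those. Its r to the 3A libraries was 0.946 to 0.955, as close as to its own group, whereas Control 2 and Control 3 had 0.910 to 0.938 to 3A. To a smaller extent 3A 1 also stood apart, with r = 0.985 and 0.982 to 3A 2 and 3A 3, against 0.994 between those. To Control 2 and Control 3, 3A 1 had r = 0.938, against 0.910 to 0.916 for 3A 2 and 3A 3. Itga3, the gene altered in the lines, had 1007 to 1220 counts in Control and 2064 to 2807 in 3A. In 3A, reads of human α3 may be counted on the mouse gene, so the counts do not check the transgene. Control was not given human α3, so its Itga3 reads have another source. That source was not traced, so the counts do not check the deletion either. All 8 keratinocyte markers were tested, with summed levels of 9532 to 11218 CPM (counts scaled to a common library size) in Control and 6791 to 8776 CPM in 3A. Markers of other cell types summed to at most 3.40 CPM for 6 fibroblast genes, 1.67 CPM for 5 melanocyte genes, 0.946 CPM for 4 endothelial genes and 0.137 CPM for 5 immune genes, with Lum, Dct, Tyr and Adgre1 at 0 counts in every library. The melanocyte sum was 1.27 to 1.67 CPM in Control and 0.602 to 0.752 CPM in 3A. Nearly all of it was Pmel, at 1.27, 1.57 and 1.40 CPM in Control 1 to 3 and 0.602, 0.693 and 0.752 CPM in 3A 1 to 3. The part of other cell types in the results was not tested.

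Of the 44 imprinted genes, 30 passed the filter on low counts. The 6 genes Slc22a3, Kcnk9, Magel2, Mirg, Sgce and Peg10 had 0 counts in every library, which allows up to 0.0156 CPM over all libraries (3 counts, counting error only). The other 8, Ascl2, H19, Usp29, Grb10, Dlk1, Meg3, Rian and Ppp1r9a, had at most 11 counts in any library. The Meg3 and Peg10 domains therefore gave no tested gene. Cdkn1c and Kcnq1 reached the filter through Control alone, and Peg13, Peg3 and Ndn through 3A alone, in each case the group where they were higher, so a difference was built into their passing. Airn also passed through 3A alone, although it was lower there. In Control, among tested members and per kilobase of exon, Gnas was the highest at 61.6 CPM per kilobase, Nap1l4 followed at 35.4, and Cdkn1c ranked 12 at 6.10 CPM per kilobase. In 3A, Nap1l4 ranked 1 at 66.0 and Gnas 2 at 43.1 CPM per kilobase.

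In the fit over all 13704 tested genes, the quasi-likelihood test of edgeR, adjusted by Benjamini-Hochberg, put 4 of the 30 members past an adjusted p of 0.05 as higher in 3A and 6 as lower. The background was 7.52% of all tested genes higher and 7.39% lower. Nothing is read from the members' count, because they were chosen with this contrast known and some passed the filter only where they were high. Below, "rose" and "fell" mean past that threshold. The members that rose were Nap1l4, Peg13, Blcap and Peg12, and those that fell were Cdkn1c, Kcnq1, Slc22a18, Igf2, Impact and Zrsr1. The libraries of the groups did not overlap for 14 members, 7 higher and 7 lower in 3A, beside 36.1% of all tested genes, 18.6% higher and 17.6% lower. The median log2 fold change was -0.10 over the members, also with Cdkn1c at its bound, and -0.02 over all tested genes. Of 13 tested genes usually expressed from the maternal copy, 2 rose and 3 fell. Of 16 usually expressed from the paternal copy, 2 rose and 3 fell as well, so both classes held calls in both directions.

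**Figure D1:**
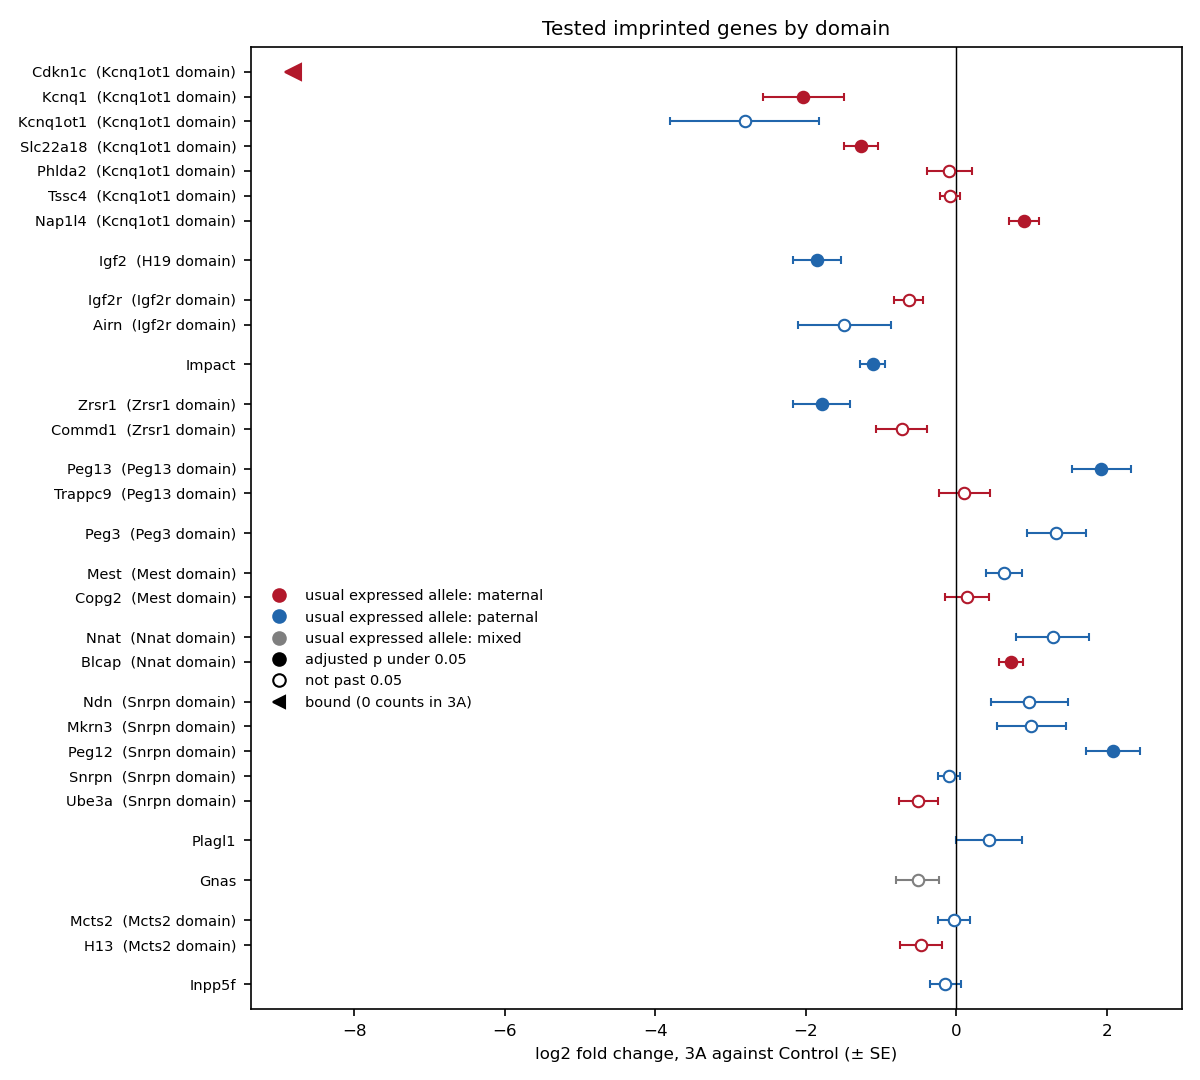
Log2 fold change of 3A against Control (horizontal axis, ± SE, n = 3 libraries per group) for the 30 tested imprinted genes, ordered by domain. Colours give the usual expressed parental copy, filled points passed an adjusted p of 0.05, and the triangle is the bound for Cdkn1c, which had 0 counts in every 3A library and also passed.

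Cdkn1c (chromosome 7, 143458339 to 143461050, minus strand, GRCm38) was expressed in Control and not detected in 3A. Control 1, 2 and 3 held 249, 437 and 341 counts of it, and each of the 3 libraries of 3A held 0. Its Control level was 12.4 ± 3.94 CPM (SD, n = 3). With the 3 counts that a count of 0 allows over the 3A libraries (0.0277 CPM), Cdkn1c was at least 449-fold lower in 3A than the Control mean. This bound takes in counting error only, not the spread between libraries. In such bulk samples, fewer cells with a transcript and less of it per cell cannot be told apart. Among all 49315 genes counted, Cdkn1c alone had at least 100 counts in every Control library and 0 in every 3A library. The reverse pattern also held for 1 gene, Magea8, named after its values were seen. Gm44732, annotated antisense within Cdkn1c, shares 625 exon bases with it and had 0 counts in every library.

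Slc22a18, a transporter gene starting 12.7 kb from the Cdkn1c start (143473736 to 143499334, plus strand), fell without disappearing. Its levels were 5.33, 6.84 and 7.30 CPM in Control 1 to 3, then 2.46, 2.48 and 3.12 CPM in 3A 1 to 3. The groups did not overlap, with a log2 fold change of -1.27 (SE 0.23). Without Control 2 (-1.24) or 3A 2 (-1.21) it no longer passed.

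Kcnq1, which encodes a potassium channel subunit and spans 143106362 to 143427042 on the plus strand, was scarce. It gave 12, 26 and 11 counts in Control 1 to 3, against 3, 4 and 8 in 3A 1 to 3. All 3A values lay below all Control values, with a log2 fold change of -2.04 (SE 0.54). It was short of the threshold without Control 2 (-1.59), Control 3 (-2.16), 3A 1 (-1.79), 3A 2 (-1.87) or 3A 3 (-2.53), with library size alone (-1.96) or without the low-count filter.

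Kcnq1ot1 lies inside Kcnq1 on the opposite strand (143203458 to 143296549) and shares 121 exon bases with it. Without the strand setting, reads from the pair cannot be fully told apart. Kcnq1ot1 is the transcript whose presence on the paternal copy accompanies silencing of the genes around it, including Cdkn1c. It gave 8, 149 and 153 counts in Control 1 to 3, against 28, 22 and 10 in 3A 1 to 3. Control 2 and Control 3 lay far above every 3A library, whereas Control 1 lay below all of them. Levels were 0.254, 5.09 and 6.50 CPM across the Control libraries, against 0.802, 0.586 and 0.278 CPM across those of 3A, and the log2 fold change of -2.81 (SE 0.99) did not pass. Without Control 1 it was -3.36 and passed, and it also passed by DESeq2 (-2.84) and when low counts were not filtered (-2.76), but not by limma-voom (-1.89). In the 3A libraries the low level of Kcnq1ot1 stood beside 0 counts of Cdkn1c, and in Control 1 a level as low (8 counts) stood beside 249 counts of Cdkn1c. Any link between the levels of these RNAs was not tested.

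The 250 bases before the start of Kcnq1ot1 are shown with those before Airn and Zrsr1, because these are paternally expressed transcripts tied to control elements of their domains and all 3 had their lowest Control level in Control 1. Sequences are from RefSeq (GRCm38.p6), written 5′ to 3′ on the strand of the transcript, with CG dinucleotides and CCAAT pentamers (also sought as ATTGG, the other strand) in capitals. The motifs share no bases in these windows.
Kcnq1ot1, chr7:143296548-143296797, minus strand: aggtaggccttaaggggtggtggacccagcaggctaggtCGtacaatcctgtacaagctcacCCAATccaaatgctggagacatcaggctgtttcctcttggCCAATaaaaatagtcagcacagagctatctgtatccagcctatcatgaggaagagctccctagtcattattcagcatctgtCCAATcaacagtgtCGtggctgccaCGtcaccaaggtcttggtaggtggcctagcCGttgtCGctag
Airn, chr17:12741061-12741310, plus strand: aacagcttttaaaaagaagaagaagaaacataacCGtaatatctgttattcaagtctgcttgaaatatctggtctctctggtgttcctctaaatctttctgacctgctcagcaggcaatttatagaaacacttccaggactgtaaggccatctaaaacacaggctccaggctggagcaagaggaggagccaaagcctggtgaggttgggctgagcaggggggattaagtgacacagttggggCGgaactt
Zrsr1, chr11:22971755-22972004, plus strand: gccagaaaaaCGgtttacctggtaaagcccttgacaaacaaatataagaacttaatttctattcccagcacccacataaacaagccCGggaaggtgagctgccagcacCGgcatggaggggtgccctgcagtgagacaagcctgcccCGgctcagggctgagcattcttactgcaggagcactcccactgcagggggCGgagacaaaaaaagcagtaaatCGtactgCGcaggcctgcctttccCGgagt

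The Kcnq1ot1 window held 3 CCAAT pentamers, a number reached by 2.79% of all 32851 promoter windows of this length, while 33.8% held at least 1 and the other two windows held none. CG dinucleotides numbered 5, 2 and 8 in the windows of Kcnq1ot1, Airn and Zrsr1, against a median of 6 over all windows and 10 over the 49 windows of members. The hexamer TGCCGC (and GCGGCA), part of the site read by the imprint-keeping factor ZFP57, was in none of the 3. It was in 8.7% of all windows and in 12.2% of the 49 windows of members. Bases after the start were not searched, so these counts do not describe the whole control elements. Mcts2, also usually paternally expressed and lowest in Control 1 among the Control libraries (11.0, 16.7 and 16.8 CPM), is not shown. Its window held 1 such hexamer and 20 CG dinucleotides. Of the 44 genes, 34 had a window. Cdkn1c, H19, Impact, Kcnk9, Kcnq1, Nap1l4, Peg10, Peg13, Sgce and Trappc9 did not match.

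Of the 8 members in the Cdkn1c domain 7 were tested, and 1 rose and 3 fell. Beside this, 14.9% of all tested genes were called in either direction. The median log2 fold change was -1.27 over these members and -0.02 over all tested genes. The members include Cdkn1c, for which the list was chosen. None of those described next was past the threshold as lower. Phlda2, a growth-restraining gene of placenta 42.1 kb from the Cdkn1c start, gave 8.27, 14.6 and 15.9 CPM in Control 1 to 3, against 15.6, 11.0 and 9.80 CPM in 3A 1 to 3. The groups overlapped (log2 fold change -0.09, SE 0.30). Tssc4 averaged 36.0 ± 1.20 CPM in Control, against 33.8 ± 1.98 CPM in 3A (SD, n = 3; log2 fold change -0.09, SE 0.13), with overlapping groups. Nap1l4, a histone chaperone gene 88.1 kb away, gave 140, 98.5 and 89.8 CPM in Control 1 to 3, against 197, 203 and 213 CPM in 3A 1 to 3. All 3A libraries lay above all Control libraries, and it rose by 0.90 on the log2 scale (SE 0.20). The rise passed without Control 1 (1.13) and not without Control 2 (0.82), Control 3 (0.78), 3A 1 (0.94), 3A 2 (0.91) or 3A 3 (0.88). Ascl2, a placental transcription factor gene, had at most 7 counts in any library.

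**Figure D2:**
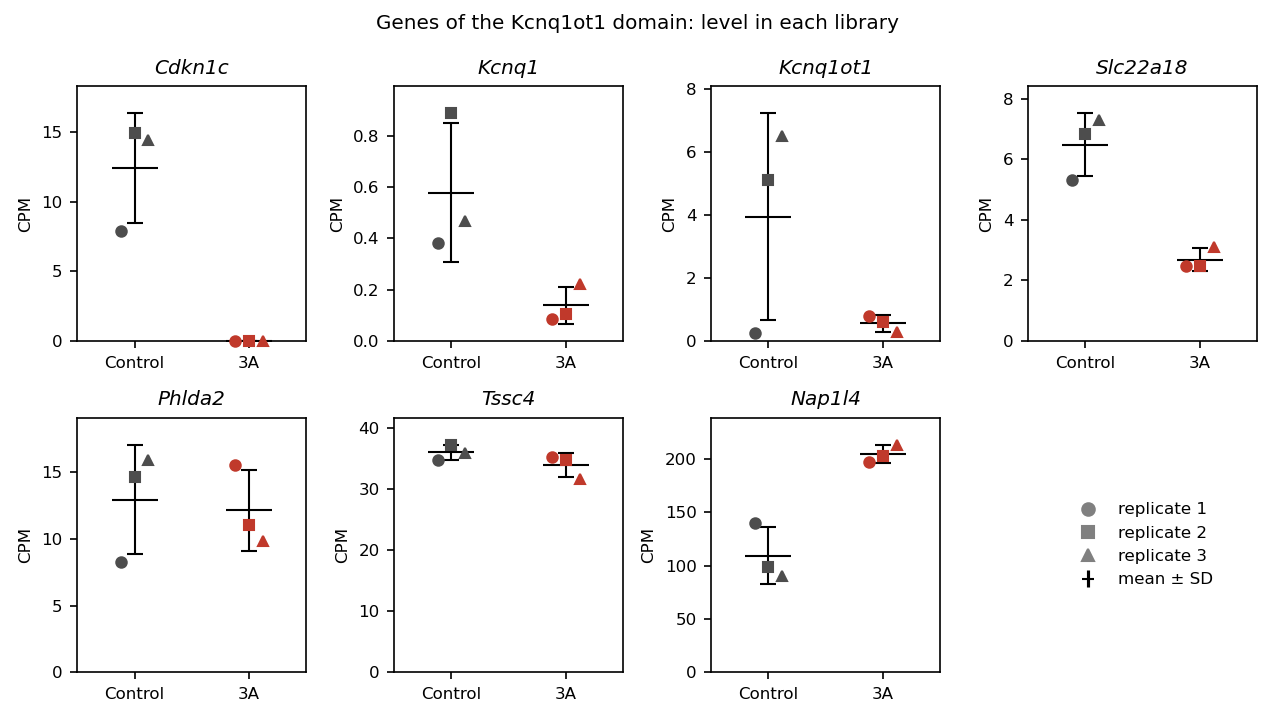
Level in CPM of the 7 tested members in the Cdkn1c domain in each library, by group, with the mean and SD (n = 3). Cdkn1c is at 0 in all 3A libraries, Control 1 (circle) is low for Kcnq1ot1, and Nap1l4 is higher in every 3A library.

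Genes near Cdkn1c that are no members differed in both directions. They were taken by distance from Cdkn1c, a gene chosen for its known difference, so their adjusted p-values are descriptions too. Of 12 tested genes that are no members and start within 500 kb of Cdkn1c, 4 rose and 1 fell by edgeR's quasi-likelihood test, beside 7.52% of all tested genes higher and 7.39% lower. Tnfrsf26, a death receptor family gene, rose, from a mean of 49.7 in Control to 165 CPM in 3A (log2 fold change 1.73, SE 0.16, edgeR adjusted p = 0.00118). Its neighbour and family member Tnfrsf22 fell, with 22.3, 21.3 and 19.6 CPM in the Control libraries against a mean of 12.1 CPM in those of 3A (log2 fold change -0.80, SE 0.16, edgeR adjusted p = 0.0170). Tnfrsf23, the next gene of the same family, averaged 65.5 CPM in Control, against 60.2 CPM in 3A and did not pass (edgeR adjusted p = 0.573). Cd81, a tetraspanin gene, is no member but lies between the members Ascl2 and Tssc4, within the span of the domain. It rose, from a mean of 26.7 in Control to 91.8 CPM in 3A (log2 fold change 1.78, SE 0.26, edgeR adjusted p = 0.00555). Mrgpre, a G protein-coupled receptor gene, and the noncoding E230032D23Rik rose at low levels, by 1.98 and 2.25 (edgeR adjusted p = 0.0243 and 0.00866). Mrgpre reached the filter on low counts through 3A alone, where it was higher, so a difference was built into its passing. Tnfrsf26 and Cd81 passed whichever library was left out. E230032D23Rik did not pass without 3A 2 (2.18) or 3A 3 (2.08), and Tnfrsf22 passed without Control 1 (-0.75) or Control 3 (-0.85) and not without Control 2 (-0.80), 3A 1 (-0.71), 3A 2 (-0.83) or 3A 3 (-0.85). Of the fits without 1 library, Mrgpre passed in that without Control 1 (2.42) alone, and it lay between 1.65 and 2.10 without any other library.

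**Figure D3:**
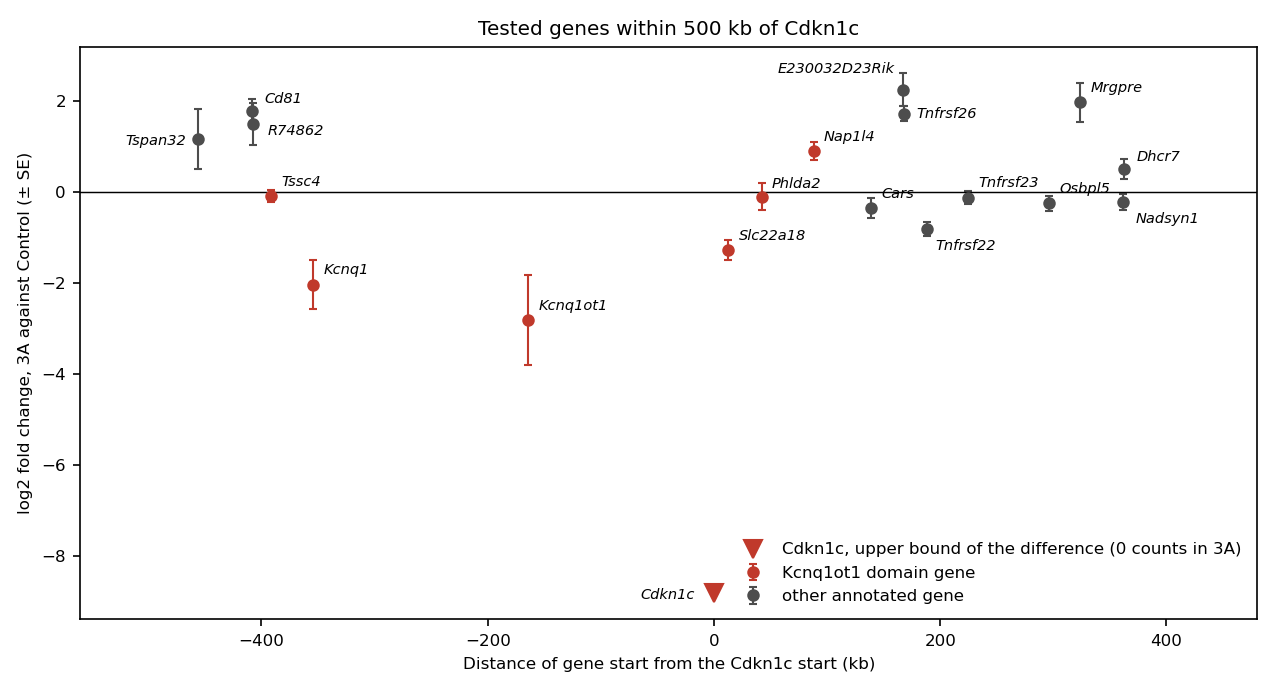
Log2 fold change of 3A against Control (± SE) for the tested genes within 500 kb of Cdkn1c, by distance of their start from the Cdkn1c start in kb. Cdkn1c is drawn at its bound (at least 8.81 lower on this scale), Kcnq1, Kcnq1ot1 and Slc22a18 lie below 0, and of the genes that are no members Tnfrsf22 is the lowest, at -0.80.

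Igf2 and H19 form the neighbouring domain, in which the maternal copy usually gives the noncoding H19 and the paternal copy the growth factor. Igf2 gave 82, 59 and 58 counts in Control 1 to 3, against 31, 20 and 19 in 3A 1 to 3. Its level fell, from a mean of 2.36 ± 0.305 in Control to 0.650 ± 0.206 CPM in 3A (SD, n = 3; log2 fold change -1.86, SE 0.32), with no overlap. Igf2 shares 98 exon bases with the antisense Igf2os, whose reads cannot be told apart there. It did not pass without 3A 2 (-1.72) or 3A 3 (-1.72). H19 gave 2, 1 and 0 counts in Control 1 to 3, against 3, 4 and 4 in 3A 1 to 3, below the filter. Igf2r, which encodes the receptor that carries IGF2 to lysosomes, gave 25.5, 18.2 and 18.7 CPM across the Control libraries, against 11.7, 14.3 and 14.2 CPM across those of 3A. All 3A values were lower, and the log2 fold change of -0.63 (SE 0.19) did not pass with 6 libraries. It was -0.45 without Control 1 and -0.64 by DESeq2, and passed in both. Airn, the paternal noncoding RNA that overlaps Igf2r, gave 9, 35 and 40 counts in Control 1 to 3, against 16, 12 and 12 in 3A 1 to 3, with Control 1 again below all other libraries (log2 fold change -1.49, SE 0.62, not past the threshold with 6 libraries, and -1.94 and past it without Control 1). Grb10, an adaptor that restrains insulin and IGF signalling, had at most 2 counts in any library.

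Impact and Zrsr1 were the other members that fell. Impact, a translation regulator gene, gave 51.0, 40.8 and 42.8 CPM in Control 1 to 3, against 18.5, 20.4 and 23.4 CPM in 3A 1 to 3. The groups were well apart (log2 fold change -1.11, SE 0.17). It did not pass without 3A 2 (-1.09). Zrsr1, a splicing factor gene without introns that lies inside Commd1, gave 8.69, 19.2 and 24.9 CPM in Control 1 to 3, against 5.99, 4.66 and 4.62 CPM in 3A 1 to 3. Control 1 was the lowest Control library but still above all of 3A (log2 fold change -1.79, SE 0.38). Zrsr1 passed without Control 1 (-2.10) and not without Control 2 (-1.73), Control 3 (-1.45), 3A 1 (-1.91), 3A 2 (-1.72) or 3A 3 (-1.71). Its host Commd1, a copper metabolism gene, gave 46.5, 100 and 118 CPM across the Control libraries, against 65.3, 47.7 and 47.5 CPM across those of 3A. Those groups overlapped, and its log2 fold change of -0.72 (SE 0.34) did not pass with 6 libraries but did without Control 1 (-1.02).

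Peg12, a gene of the Snrpn domain that encodes a GSK-3 binding protein, rose. It gave 44, 18 and 21 counts in Control 1 to 3, against 166, 165 and 114 in 3A 1 to 3, or 0.967 ± 0.395 against 4.11 ± 0.829 CPM (SD, n = 3; log2 fold change 2.08, SE 0.36). It did not pass without 3A 2 (2.03). Its neighbours Mkrn3, a ubiquitin ligase gene, and Ndn, which encodes necdin, had log2 fold changes of 1.00 (SE 0.46) and 0.97 (SE 0.51) that did not pass. Ndn gave 3, 13 and 7 counts in Control 1 to 3, against 18, 21 and 20 in 3A 1 to 3, without overlap after scaling. Magel2 had 0 counts throughout. Snrpn, the spliceosomal gene at the control element of this domain, averaged 26.1 ± 2.18 CPM in Control, against 24.3 ± 1.23 CPM in 3A and did not pass (log2 fold change -0.10, SE 0.14). Snrpn shares 216 exon bases with Snurf and 589 with a further gene model, so part of its reads may be assigned elsewhere. Ube3a, a ubiquitin ligase gene imprinted in neurons, had 85.8 ± 26.7 CPM (Control) and 60.5 ± 10.8 CPM (3A) and did not pass with 6 libraries (log2 fold change -0.50, SE 0.26), but did without Control 1 (-0.70). It shares 1803 exon bases with Snhg14 and 2025 with Gm44560, both on the opposite strand, so reads there may be assigned to either gene.

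Peg13 and Blcap were the other members that rose. Peg13, a noncoding RNA within an intron of Trappc9, gave 7, 6 and 3 counts in Control 1 to 3, against 27, 20 and 31 in 3A 1 to 3 (log2 fold change 1.92, SE 0.39). Every 3A library was higher, at levels under 1 CPM. Blcap, which encodes a small membrane protein and is the host of Nnat, gave 36.0, 28.7 and 26.7 CPM across the Control libraries, against 48.0, 51.6 and 51.8 CPM across those of 3A (log2 fold change 0.73, SE 0.16). Leaving out any of 5 libraries (Control 2, Control 3, 3A 1, 3A 2 or 3A 3) left both short of the threshold, with log2 fold changes of 1.74 to 2.11 for Peg13 and 0.64 to 0.77 for Blcap. Nnat, a proteolipid gene of developing brain, gave 0.634, 0.513 and 0.637 CPM in Control 1 to 3, against 0.573, 1.95 and 1.81 CPM in 3A 1 to 3, where 3A 1 lay among the Control values. Peg3, a zinc finger gene, gave 12, 11 and 6 counts in Control 1 to 3, against 21, 29 and 43 in 3A 1 to 3. Its groups did not overlap, and the log2 fold change of 1.32 (SE 0.39) did not pass with 6 libraries but did without Control 1 (1.43). Mest, a hydrolase gene, had 2.85 ± 0.635 CPM (Control) and 4.44 ± 0.456 CPM (3A) without overlap, and its log2 fold change of 0.64 (SE 0.24) likewise passed without Control 1 (0.85) and in no other alternative. Mest shares 912 exon bases with the far more abundant Copg2 on the opposite strand, so reads there may be assigned to either gene.

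**Figure D4:**
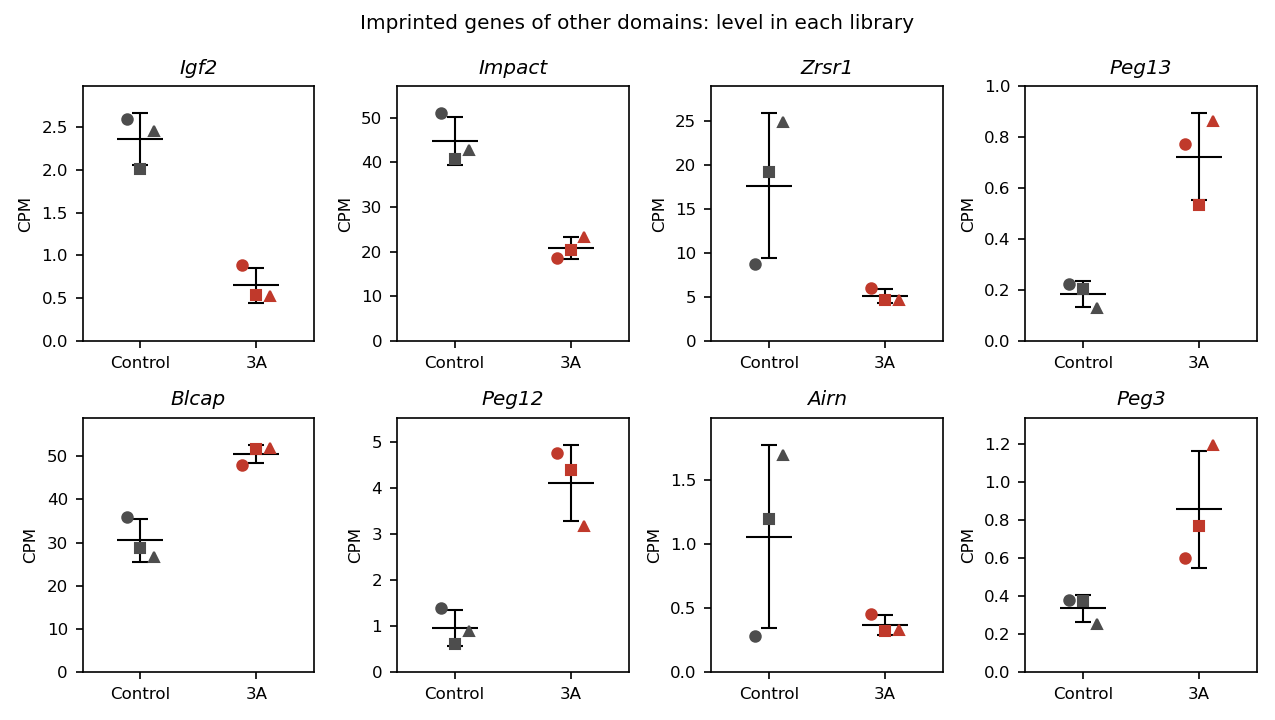
Level in CPM of 8 imprinted genes outside the Cdkn1c domain in each library, by group, with the mean and SD (n = 3). Igf2, Impact and Zrsr1 are lower and Peg13, Blcap, Peg12 and Peg3 higher in every 3A library, whereas the groups overlap for Airn, with Control 1 (circle) low.

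Several paternally expressed transcripts lie within or beside another gene, and the ratio of their counts in a library does not depend on scaling. Zrsr1 had 18.7, 19.1 and 21.1 counts per 100 counts of Commd1 in Control 1 to 3, then 9.17, 9.78 and 9.74 in 3A 1 to 3. Although Control 1 held less of both RNAs, its ratio was close to those of Control 2 and Control 3, and the 3A ratio was 0.487 of the Control mean. The pair shares 412 exon bases on opposite strands, so reads there may be assigned to either gene. Peg13 had 0.523, 1.07 and 0.743 counts per 100 of Trappc9 in Control and 2.76, 1.84 and 3.10 in 3A. Mcts2, an intronless gene inside H13, had 11.8, 9.40 and 9.07 counts per 100 of H13 in Control and 12.5, 14.4 and 13.1 in 3A, again without overlap. The level of Mcts2 itself differed little (log2 fold change -0.03, SE 0.21). H13 averaged 152 CPM in Control and 110 CPM in 3A, with overlapping groups. For Airn over Igf2r, Mest over Copg2, Nnat over Blcap and Kcnq1ot1 over Kcnq1 the ratios of the groups overlapped. Mest and Copg2 also share exon bases on opposite strands (912). With 3 libraries against 3, an exact permutation test could not give a p below 0.10, and none was made.

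**Figure D5:**
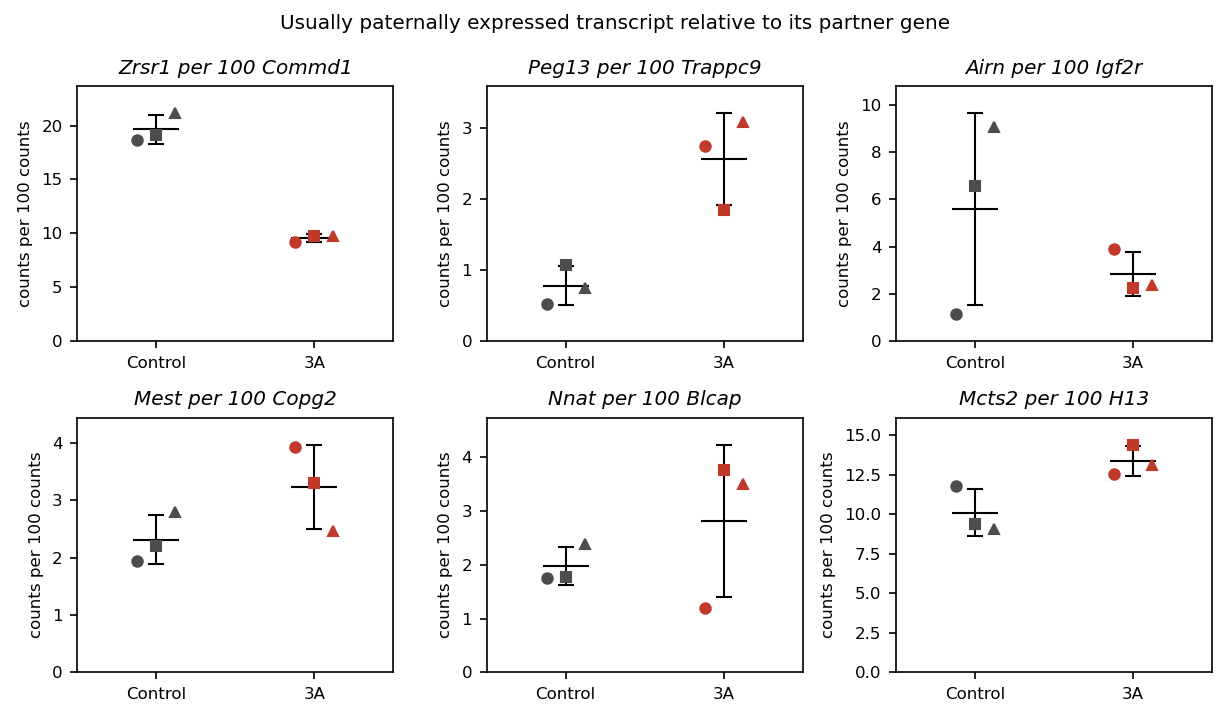
Counts of a usually paternally expressed transcript per 100 counts of its partner gene in each library, by group, with the mean and SD (n = 3). The ratio to Commd1 is lower for Zrsr1, and the ratios to Trappc9 and H13 are higher for Peg13 and Mcts2, in every 3A library.

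The groups overlapped for several abundant members, none of them past the threshold with all 6 libraries. Gnas, which encodes the stimulatory G protein α subunit together with imprinted alternative products, gave 486, 806 and 776 CPM in Control 1 to 3, against 651, 429 and 366 CPM in 3A 1 to 3. H13, a signal peptide peptidase gene, had 152 ± 50.9 CPM (Control) and 110 ± 19.3 CPM (3A). Copg2, a coat protein gene, had 128 ± 49.0 CPM (Control) and 142 ± 29.8 CPM (3A), and Trappc9, a vesicle tethering gene, 26.3 ± 14.0 CPM (Control) and 28.3 ± 0.549 CPM (3A). Without Control 1, Gnas (-0.70) and H13 (-0.72) were past the threshold as lower and Trappc9 (0.65) as higher. Mcts2, Inpp5f and Plagl1, a zinc finger gene linked to growth restraint, had log2 fold changes of -0.03 (SE 0.21), -0.15 (SE 0.21) and 0.43 (SE 0.44) and did not pass in either fit. Without Control 1, 7 members were higher and 13 lower, beside a background of 52% of the 14300 genes then tested, 26.2% higher and 25.8% lower.

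Other genes reported as imprinted in some mouse tissue gave calls in both directions. Their list, like that of imprinting factors below, was chosen with earlier results of these data known. The adjusted p-values of both lists are therefore descriptions. Of 43 such genes in the table, 19 were tested, and 4 rose and 1 fell, beside 7.52% of all tested genes higher and 7.39% lower. Their median log2 fold change was 0.47, against -0.02 over all tested genes, and 5 of the 19 also lie near Cdkn1c and were counted there, among them Cd81. Pon3, a paraoxonase gene beside the Peg10 domain on chromosome 6, rose, from a mean of 0.931 ± 0.186 in Control to 9.18 ± 1.53 CPM in 3A (SD, n = 3), by 3.30 on the log2 scale (SE 0.26; edgeR adjusted p = 0.000638). Casd1, a sialic acid acetyltransferase gene on the other side of Sgce and Peg10, gave 73, 57 and 43 counts in Control 1 to 3, against 0, 5 and 0 in 3A 1 to 3. It fell by 5.36 on the log2 scale (SE 0.82, edgeR adjusted p = 0.00679), while Sgce and Peg10 between these genes had 0 counts in both lines. Casd1 reached the filter on low counts through Control alone, where it was higher, so a difference was built into its passing. Cpa4, a carboxypeptidase gene near Mest, rose by 1.21 (SE 0.18, edgeR adjusted p = 0.00587) to 32.6 CPM in 3A. Bcl2l1, a survival gene of the BCL2 family, rose by 0.74 (SE 0.18, edgeR adjusted p = 0.0357). Pon3, Casd1, Cpa4 and Cd81 passed whichever library was left out. Casd1 was at 0 in both remaining 3A libraries without 3A 2. Of the fits without 1 library, Bcl2l1 passed in that without Control 1 (0.84) alone, with log2 fold changes of 0.59 to 0.83 without Control 2, Control 3, 3A 1, 3A 2 or 3A 3.

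Among 26 tested factors that set, read or keep imprints, 1 rose and 2 fell, a share of 11.5% beside 14.9% of all tested genes. The gene that rose was Zfp57, which encodes the zinc finger protein that binds methylated control elements. It gave 9, 25 and 26 counts in Control 1 to 3, against 177, 105 and 122 in 3A 1 to 3, or 0.748 ± 0.420 against 3.76 ± 1.18 CPM (SD, n = 3), higher by 2.34 on the log2 scale (SE 0.49; edgeR adjusted p = 0.0221). It passed without Control 1 (1.95) or Control 3 (2.72) and not without Control 2 (2.46), 3A 1 (2.07), 3A 2 (2.52) or 3A 3 (2.42). Zfp57 reached the filter on low counts through 3A alone, where it was higher, so a difference was built into its passing. Zfp445, which encodes a further zinc finger protein of imprint keeping, had 40.5 ± 6.07 CPM (Control) and 56.0 ± 8.49 CPM (3A) and did not pass with 6 libraries (edgeR adjusted p = 0.122) but did without Control 1 (0.61). Trim28, the corepressor both recruit, had 201 ± 64.2 CPM (Control) and 206 ± 16.7 CPM (3A) (edgeR adjusted p = 0.936). Of those that fell, Arid4a fell by 0.98 on the log2 scale (SE 0.26; edgeR adjusted p = 0.0491). It passed without Control 1 (-1.19) and not without any of the other 5 libraries (Control 2, Control 3, 3A 1, 3A 2 or 3A 3), at -1.05 to -0.72. Library size alone (-0.89), relative log expression (-0.99), at least 1 CPM in 3 libraries (-0.99) and limma-voom (-0.92) also ended the call.

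The maintenance methyltransferase gene Dnmt1 gave 198, 124 and 128 CPM in Control 1 to 3, against 235, 234 and 217 CPM in 3A 1 to 3, and did not pass with 6 libraries (log2 fold change 0.61, SE 0.21, edgeR adjusted p = 0.0926). Uhrf1, which guides DNMT1 to replicated DNA, was also higher in each 3A library, with 55.0 ± 11.0 CPM (Control) and 79.6 ± 6.37 CPM (3A) (log2 fold change 0.53, SE 0.18, edgeR adjusted p = 0.0896). Both passed without Control 1, at 0.87 and 0.72, and by DESeq2, at 0.60 and 0.53. Eed, a Polycomb subunit gene, gave 72.1, 28.6 and 20.4 CPM in Control 1 to 3, against 65.2, 81.5 and 88.7 CPM in 3A 1 to 3, so that Control 1 lay within the 3A values. It differed by 0.96 on the log2 scale (SE 0.45; edgeR adjusted p = 0.175), and by 1.69 without Control 1, where it passed. Ctcf, the insulator protein gene, had 91.9 ± 5.98 CPM (Control) and 84.3 ± 2.93 CPM (3A) and did not pass (log2 fold change -0.12, SE 0.13, edgeR adjusted p = 0.524).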

How the data were processed

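Gene-level counts came from 6 RNA-seq libraries of immortalized mouse keratinocytes, 3 of Control and 3 of 3A. The deposited values are raw read counts per gene, whole numbers with no normalization by the authors. Per the submitters' processing notes, the tools were Trim Galore and featureCounts, then edgeR with limma, and the builds listed are GRCh38, hg38 and mm10, all without roles. No source used here gives the aligner, annotation release or strand setting.

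Gene models and symbols of GENCODE M21 (on GRCm38, the mm10 assembly) matched 49056 of 49315 IDs. Differences were fitted over all 13704 genes that passed filterByExpr with edgeR 4.0.16 (TMM, glmQLFit, glmQLFTest, group as the only term) in R 4.3.3, with Benjamini-Hochberg adjustment and a threshold of 0.05. Each SE was the size of the log2 fold change over the square root of F. Levels are CPM on TMM-scaled library sizes. Alternatives were relative log expression or library size alone, no low-count filter, at least 1 CPM in 3 libraries, DESeq2 1.42.0, limma-voom (limma 3.58.1), a replicate block and each library left out. The method was tested on simulated data for this comparison (13564 genes, 195 changed): 37.8% of the 2-fold and 99% of the 4-fold changes were found, with 5 false among 138 calls. Every simulated gene had the same relative spread between libraries, and no simulated library stood apart as Control 1 did. These rates may therefore not hold for the real data.

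The members, the lists and the naming rule were chosen with earlier results of these data known. Named genes were every member in the Cdkn1c domain and every other member past the threshold. Members with groups that did not overlap at 1 CPM or more were also named. Of each further list, up to 6 genes past the threshold were named, plus Dnmt1, Uhrf1, Trim28, Zfp57, Zfp445, Ctcf and Eed. Other members are named with their values only. A further gene that met the rule is not reported here. Within groups no pair of libraries agreed within sampling noise (lowest chi-square per degree of freedom 15.7).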

Additional observations from a re-analysis of the deposited data

How the results depend on the processing

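Directions held for the named genes past the threshold under each alternative that tested them (Kcnq1 and Peg13 were not tested with at least 1 CPM in 3 libraries), and counts of calls moved with the replicate block and with single libraries. Over the fits that each left out 1 library, members called higher ranged from 0 to 7 and lower from 1 to 13, all genes from 346 to 3751 and from 318 to 3690, other imprinted genes higher from 3 to 9, and imprinting regulators from 0 to 9 and from 0 to 3. The upper ends were without Control 1, and edgeR's lowest member counts were without 3A 2, with 5 higher and 7 lower at an unadjusted p under 0.05. With the replicate block, edgeR called 142 genes higher and 146 lower, 0 members higher and 1 lower (4 and 6 unadjusted, 4 and 8 by DESeq2 without the block), 1 and 0 other imprinted genes (4 and 1 unadjusted) and 0 and 0 regulators (2 and 2 unadjusted). Deviations of same-numbered libraries from their group means correlated at -0.66, -0.42 and -0.37. These values cannot show whether same-numbered libraries were handled together. DESeq2 called 1678 genes higher and 1887 lower and 5 regulators higher. Regulators called lower numbered 1 with relative log expression, no low-count filter, at least 1 CPM in 3 libraries or limma-voom, and 0 with library size alone (edgeR, 3 at an unadjusted p under 0.05; 3 by DESeq2). Where the leave-one-out fits called 0 regulators, 1 to 7 were higher and 2 or 3 lower unadjusted. The cause of these shifts was not tested. Phlda2 and Trim28, not past the threshold, changed sign between libraries left out, with ranges of -0.32 to 0.08 and -0.12 to 0.33. Depth limits members with few counts, such as Kcnq1, Peg13 and Ndn.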

Other observations

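Within the Control group, some imprinted transcripts differed widely between libraries, as did many other genes. Relative to the mean of Control 2 and Control 3, Control 1 held 22.8-fold less Kcnq1ot1, 5.07-fold less Airn, 2.54-fold less Zrsr1, 2.35-fold less Commd1 and 3.90-fold less Ndn, and 2.33 times as much Trappc9. The first 5 genes were the tested members below 1/2 of that mean, and Trappc9 alone of the 30 lay above 2 times it. That was 16.7% of members below and 3.33% above these limits, beside 12.5% and 8.79% of all 13698 tested genes with a value. The value for Ndn rested on 3, 13 and 7 counts in Control 1 to 3. Kcnq1ot1 was among the lowest, with 0.17% of genes having a smaller ratio.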
